A study of Mus musculus with 25 samples.

Results

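The methylation of 9 genes of leukocyte signalling was followed in mouse mammary fat pads: Lat, Dok3, Inpp5d, Vav1, Rasgrp4, Arhgap30, Arhgap45, Coro1a and Rps6ka1. The genes were chosen from these same data for CpGs that were more methylated in weight-loss mice on a restricted diet than in Control mice, so those differences are given below as a description. They are 9 of the 16274 genes in the deposited table and carry 298 of its CpGs, of which 283 had an average coverage of 10 reads or more. Of the 15 CpGs below that, 10 lie in Arhgap30, 3 in Vav1 and 1 each in Inpp5d and Rps6ka1. Only methylation was measured, so that these genes act in leukocytes is background and was not measured in these samples.

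Cytosine methylation at CpG sites is a stable mark that differs between cell types, and CpGs near the start of a gene are often unmethylated in cells that use the gene. Signals from antigen and Fc receptors on leukocytes run through adaptor proteins to exchange factors that load small GTPases, and phosphatases, inhibitory adaptors and GTPase-activating proteins damp them. The mammary fat pad holds adipocytes, epithelial ducts, vessels and fibroblasts together with macrophages and lymphocytes. In such bulk DNA, a change in the share of cells of a type and a change of methylation within cells cannot be told apart.

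The method was reduced representation bisulfite sequencing (RRBS), in which DNA is cut with MspI and short pieces, here of 40 to 170 bp, are sequenced. All mice were wild-type C57BL/6N, all received E0771 mouse mammary cancer cells in the 4th mammary fat pad 25 weeks after randomization, and all DNA came from the uninjected 9th pad at the endpoint, although the titles carry the word tumor and the labels the cell line. MCR mice (n = 3) became obese on a 60% fat diet (D12492) and then ate a Mediterranean-style diet with 30% calorie restriction. LFCR mice (n = 4) went through the same obesity and then ate a low-fat diet with 30% calorie restriction. The ICR, LFD and Obese mice had become obese on that 60% fat diet too: ICR mice (n = 5) were then calorie-restricted intermittently, LFD mice (n = 4) ate a low-fat diet freely, and Obese mice (n = 4) stayed obese. Control mice (n = 5) ate the control diet D12450J throughout and never became obese, so the weight-loss diet and the earlier obesity cannot be told apart in a comparison with Control.

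The libraries of LFD mouse 46 and Obese mice 27, 28 and 40 stood apart from the other 21. They averaged 48.8% to 49.2%, and the others 1.09% to 1.99%, over the 32071 CpGs whose Control mean was under 5%. They were left out, which leaves 3 LFD mice and Obese mouse 22 alone. The median average coverage over all CpGs was 29.3 reads per library, the depth behind the value of a single library is unknown, and values were present for 48.3% to 99.5% of the CpGs of a library. Mice are separate animals of a group, so an SD here measures the spread between mice, and every list of levels runs through the mice by number: MCR 85, 95 and 96, LFCR 63, 67, 69 and 72, ICR 102, 103, 105, 106 and 112, LFD 42, 47 and 48, and Control 1, 2, 5, 10 and 13. A region is a run of at least 3 CpGs of a gene with neighbours no more than 500 bp apart. Its level in a mouse is in percent and starts from the mean of its CpGs over the 21 libraries. Added to that is the mean deviation of the mouse from those CpG means, over the CpGs with a value. Where no CpG is missing, this is the plain mean of its CpGs in that mouse.

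RefSeq lists starts for 8 of the 9 genes. The windows below hold 250 bases before and 50 after a listed start, on the gene's own strand, 5′ to 3′, in RefSeq's build GRCm38.p6, with each CpG measured at a coverage of 10 or more in capitals. They are shown because they set starts where levels were far apart between MCR and Control beside a start where they were not, and beside an inner start where MCR was the lower group.
Dok3, chr13:55528489-55528788, minus strand: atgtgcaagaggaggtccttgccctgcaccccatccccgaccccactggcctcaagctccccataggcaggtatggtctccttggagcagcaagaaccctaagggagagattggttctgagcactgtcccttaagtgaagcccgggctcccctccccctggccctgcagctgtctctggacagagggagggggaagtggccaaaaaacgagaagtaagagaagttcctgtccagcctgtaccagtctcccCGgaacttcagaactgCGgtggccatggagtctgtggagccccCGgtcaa
Rps6ka1, inner start, chr4:133872986-133873285, minus strand: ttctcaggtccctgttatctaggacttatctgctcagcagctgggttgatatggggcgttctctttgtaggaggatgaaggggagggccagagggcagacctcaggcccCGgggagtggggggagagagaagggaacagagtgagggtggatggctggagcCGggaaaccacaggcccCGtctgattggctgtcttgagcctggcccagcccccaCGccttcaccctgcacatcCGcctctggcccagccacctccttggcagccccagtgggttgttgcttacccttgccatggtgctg
Vav1, chr17:57278850-57279149, plus strand: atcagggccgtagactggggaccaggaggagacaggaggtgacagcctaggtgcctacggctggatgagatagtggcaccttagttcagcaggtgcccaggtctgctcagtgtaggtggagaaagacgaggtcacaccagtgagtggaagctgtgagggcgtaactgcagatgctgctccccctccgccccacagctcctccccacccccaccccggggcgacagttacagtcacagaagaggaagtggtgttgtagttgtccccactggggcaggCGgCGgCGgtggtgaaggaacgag
Coro1a, chr7:126704767-126705066, minus strand: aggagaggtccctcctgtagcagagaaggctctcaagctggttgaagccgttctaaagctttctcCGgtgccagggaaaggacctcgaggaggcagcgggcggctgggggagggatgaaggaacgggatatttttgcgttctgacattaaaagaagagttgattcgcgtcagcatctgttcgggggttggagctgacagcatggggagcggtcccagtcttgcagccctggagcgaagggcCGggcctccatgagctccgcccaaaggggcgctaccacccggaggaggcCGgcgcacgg
Arhgap45, inner start, chr10:80019425-80019724, plus strand: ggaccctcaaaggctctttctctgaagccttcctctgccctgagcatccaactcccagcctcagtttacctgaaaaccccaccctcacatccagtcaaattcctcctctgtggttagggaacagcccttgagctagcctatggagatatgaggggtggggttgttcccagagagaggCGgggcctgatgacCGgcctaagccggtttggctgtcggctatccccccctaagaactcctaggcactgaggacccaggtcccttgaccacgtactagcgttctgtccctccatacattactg

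The 3 measured CpGs of the Dok3 window averaged 75.4% in MCR mice and 31.5% in Control mice. The 5 of the inner Rps6ka1 window averaged 52.7% in MCR and 19.9% in Control, and the 3 of the Vav1 window 35.3% in MCR and 9.77% in Control. The 3 CpGs at the Coro1a start averaged 2.52% in MCR and 2.10% in Control. At the inner Arhgap45 start the order was the other way round, with 30.5% in MCR and 62.7% in Control over 2 CpGs. At all 20 member CpGs that lie in the 13 listed windows, RefSeq's sequence read CG at the deposited position.

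The 13 windows of the 8 genes held 3 to 39 CpGs with a median of 9, and all 32851 mouse windows in the RefSeq table had a median of 7. Searched on both strands, the ETS-type core GGAAGT was in the windows of Dok3, Inpp5d, Vav1 and Rps6ka1, that is in 4 of the 13 windows, and in 23.8% of all windows. The PU.1-type core GAGGAA was in 5 of the 13 windows and 28.3% of all, and the RUNX-type core TGTGGT in 6 of the 13 and 16.8% of all. Those 6 windows belong to 4 of the 8 genes. The Arhgap45 windows chr10:80016422-80016721 and chr10:80016665-80016964 overlap, and a TGTGGT in their shared stretch counts in both. The Sp1-type GGGCGG was in 5 of the 13 windows and 35.7% of all. CCGG, the MspI site that decides what RRBS can read, was in 8 of the 13 and 52.8% of all. A match of letters is a description of the window and not a site of binding.

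Of the 23 regions of the 9 genes that could be tested, 12 were called higher and 7 lower in MCR than in Control, where 5.98% of all 17895 regions were called higher and 52.4% lower. Of 181 single CpGs tested, 82 were called higher and 46 lower, beside 4.54% and 32.8% of 129217 CpGs. A call is an adjusted p under 0.05 in limma with Benjamini-Hochberg adjustment over all regions or all CpGs. MCR against Control chose the genes, so nothing is read from these counts. For each gene the tested region of largest MCR minus Control difference is called its gain region. The 9 gain regions ranked from 2 (Arhgap45) to 181 (Rasgrp4) of the 17895, with differences of 27.1 to 50.2 points and a median of 39.8, while the median over all regions was -7.59 points.

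**Figure D1:**
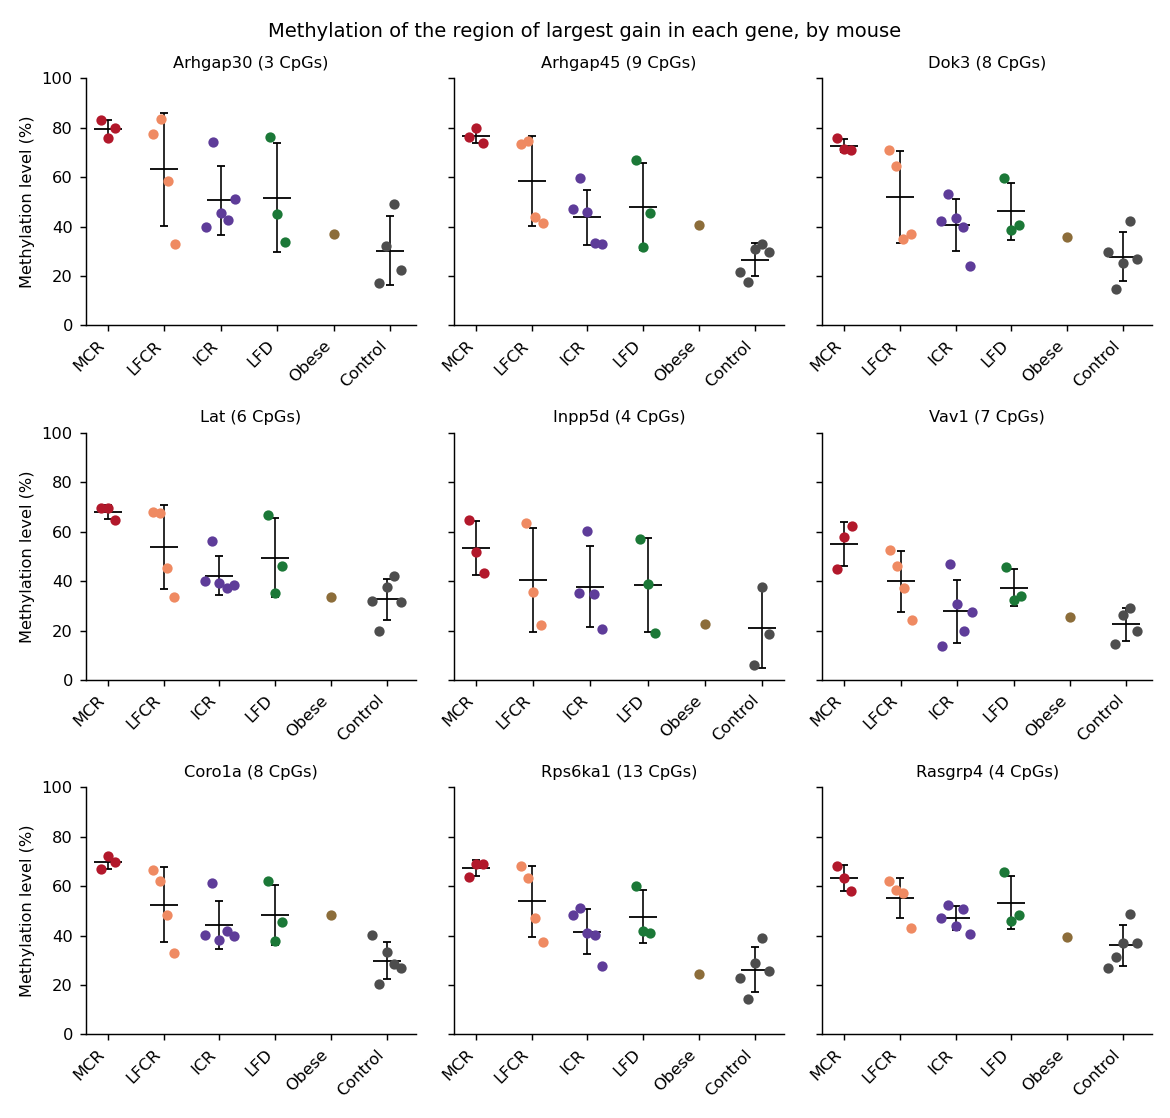
Methylation level in percent at the gain region of each gene, with 1 point per mouse in number order and bars for the mean and SD of groups of 3 or more. In each panel the MCR mice lie above every Control mouse, from 43.1% upward at Inpp5d and from 75.9% upward at Arhgap30, and LFCR mice are widely spread, with at least 1 mouse in the Control range in every panel but Arhgap45.

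Lat is the membrane scaffold that T cells phosphorylate after antigen receptor engagement. Its gain region has 6 CpGs in the 1st exon, chr7:126369227-126369350, 218 to 341 bp from the listed start, with a median average coverage of 94.3 reads. The levels were 69.5%, 69.7% and 64.9% in MCR mice, against 32.0%, 19.9%, 37.6%, 41.9% and 31.7% in Control mice, a gap of 23.0 points between the nearest mice. LFCR mice had 68.1%, 67.7%, 45.4% and 33.6%, ICR mice 40.1%, 56.0%, 39.0%, 37.0% and 38.3%, LFD mice 66.7%, 35.2% and 46.3%, and Obese mouse 22 had 33.6%. LFCR mice 63 and 67 and LFD mouse 42 were as high as the MCR mice, ICR mouse 103 stood between, and the other mice were at 46.3% or below. Group means were 68.0% ± 2.71 in MCR (SD, n = 3) and 32.6% ± 8.28 in Control (SD, n = 5), a difference of 35.4 points. The CpG with the most methylation there stood at 91.3% ± 2.38 in MCR and 42.8% ± 8.21 in Control. The other 2 Lat CpGs lie in the gene body and were lower in MCR, with 1 MCR mouse measured.

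Dok3 is an adaptor that restrains signalling in B cells and macrophages. It had 47 CpGs in 3 regions, 2 called higher and 1 called lower in MCR. Its gain region, chr13:55528339-55528537, covers the first 199 bp from the listed start with 8 CpGs in the 1st exon and the body. That start, at 55528538, lies inside RefSeq's record of the gene, which runs on upstream to 55530345. Distances in Dok3 are from the listed start. Levels there were 75.9%, 71.5% and 71.1% in MCR mice, against 29.8%, 14.7%, 25.3%, 42.2% and 27.0% in Control mice. The groups did not overlap, and the means were 72.8% ± 2.66 in MCR (SD, n = 3) and 27.8% ± 9.87 in Control (SD, n = 5). In the same region LFCR mice had 71.2%, 64.7%, 35.2% and 37.0%, ICR mice 42.3%, 53.1%, 43.4%, 40.0% and 24.0%, LFD mice 59.6%, 38.5% and 40.5%, and Obese mouse 22 had 35.9%. LFCR mice 63 and 67 were again near MCR and mice 69 and 72 in the Control range.

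A second Dok3 region of 7 CpGs lies 1043 to 1206 bp from the start. It had 80.2%, 80.9% and 76.9% in MCR mice, against 54.4%, 50.1%, 54.3%, 50.3% and 55.7% in Control mice, with other diets between 52.6% and 85.3%. MCR exceeded Control by 26.4 points there. The last region, 32 CpGs at the 3′ end of the gene, chr13:55523314-55524894, went the other way. It had 52.2%, 50.9% and 51.4% in MCR mice, against 83.4%, 84.9%, 75.3%, 78.1% and 79.0% in Control mice, a difference of -28.6 points. LFCR mice had 47.6%, 50.4%, 68.7% and 70.6%, ICR mice 71.1%, 61.7%, 74.0%, 67.1% and 71.1%, LFD mice 60.1%, 73.5% and 70.3%, and Obese mouse 22 had 68.1%. Each of the 16 mice that had become obese lay below every Control mouse at the 3′ end, where over all regions the share with every mouse of a group below Control was 49.3% in MCR, 15.3% in LFCR, 6.29% in ICR and 15.5% in LFD. The mice high near the start were low there: MCR 85, 95 and 96, LFCR 63 and 67 and LFD 42. The lowest single CpG stood at 12.4% ± 4.19 in MCR and 59.1% ± 14.6 in Control.

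**Figure D2:**
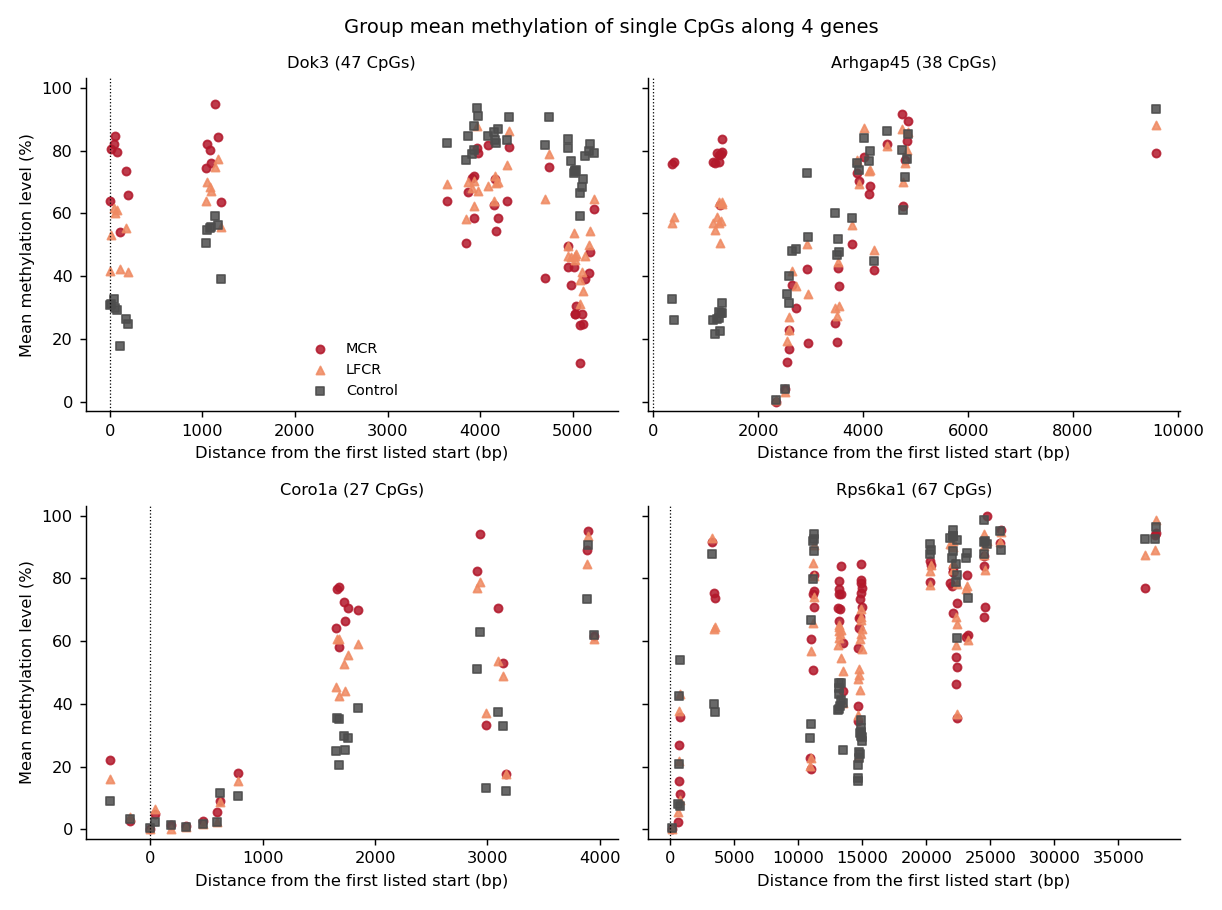
Mean methylation in percent of each CpG with an average coverage of 10 or more, against distance in bp from the first listed start (dotted line), for MCR (circles), LFCR (triangles) and Control (squares). At Dok3 and Arhgap45 MCR lies above Control near the start and mostly below it further in, Coro1a CpGs around the start are near 0 in all 3 groups, and in Rps6ka1 the gains cluster between 13115 and 14966 bp.

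Inpp5d encodes the phosphatase SHIP1, which removes a phosphate from the lipid made by phosphoinositide 3-kinase. Its gain region has 4 CpGs of the 1st exon, chr1:87620563-87620596, 251 to 284 bp from the start. MCR mice had 64.9%, 51.8% and 43.1%, and Control mice 2, 5 and 13, the 3 with a value, had 6.21%, 37.8% and 18.7%. The MCR mice were higher by 32.4 points on average, with the nearest mice of the 2 groups 5.32 points apart, the narrowest gap of the 9 genes. LFCR mice 63, 69 and 72 had 63.4%, 35.8% and 22.4%, ICR mice other than 102 had 35.3%, 60.4%, 34.8% and 20.7%, LFD mice 57.1%, 39.0% and 18.9%, and Obese mouse 22 had 22.8%. Its call was lost without any single MCR mouse, ICR mouse 103 or 106 or LFD mouse 47, and without LFCR mouse 63, 69 or 72 or Control mouse 2, 5 or 13 it could not be tested. The other 16 CpGs are spread over the body. The 7 of its largest region, 47531 to 47813 bp in, had 82.8% in MCR mouse 96, 81.4% to 91.4% in LFCR, ICR and LFD mice, 88.8% in Obese mouse 22 and 86.2% and 89.6% in Control mice 5 and 13. By contrast, 2 body CpGs 37704 to 37724 bp in had 62.5% in 1 MCR mouse and a mean of 18.4% in 2 Control mice. LFCR, ICR and LFD averaged 28.8%, 34.8% and 34.6% there. The other runs of body CpGs had MCR minus Control differences of -17.5 to -1.40 points.

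Vav1 is an exchange factor that acts behind antigen receptors and is confined largely to blood cells. Its gain region lies inside the gene, 11373 to 11617 bp from the start, chr17:57290473-57290717, with 7 CpGs. Levels were 44.9%, 58.0% and 62.1% in MCR mice, against 14.4%, 26.4%, 29.0% and 19.96% in Control mice 2, 5, 10 and 13. The means were 55.0% ± 9.01 in MCR (SD, n = 3) and 22.4% ± 6.56 in Control (SD, n = 4), without overlap. LFCR mice had 52.5%, 46.2%, 37.3% and 24.1%, ICR mice 13.8%, 47.1%, 30.7%, 19.8% and 27.4%, LFD mice 45.9%, 32.2% and 34.0%, and Obese mouse 22 had 25.4%. All 3 LFD mice were above every Control mouse here, and ICR mouse 102 was below every one. At the start itself a region of 16 CpGs, 26 to 872 bp in, had too few mice to be tested. It had 39.2% and 29.5% in MCR mice 85 and 96, against 9.46%, 15.8% and 8.78% in Control mice 2, 5 and 13. LFCR mice 63, 69 and 72 had 36.6%, 25.2% and 22.6%, ICR mice 37.6%, 37.0%, 19.6%, 20.2% and 13.7%, LFD mice 31.5%, 22.2% and 25.7%, and Obese mouse 22 had 26.5%. Of these weight-loss and obese mice, only ICR mouse 112 fell within the Control range. Over the tested regions, which leave this region out, every mouse of a group lay above Control at 1.56% in LFCR and 2.37% in LFD. Deeper in the gene, the body CpGs from 16343 bp on stood at 85.8% to 92.4% in MCR and 91.8% to 95.1% in Control over the 3 regions.

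Rasgrp4 is a Ras exchange factor of mast cells and other myeloid cells, and RefSeq's table of starts has no entry for it. The gain region has 4 CpGs in the 1st exon, chr7:29150003-29150212. Its levels were 68.3%, 63.4% and 57.9% in MCR mice, against 26.7%, 31.2%, 36.9%, 48.7% and 36.9% in Control mice, and 27.1 points apart on average, the smallest of the 9. LFCR mice had 61.9%, 58.3%, 57.3% and 43.2%, ICR mice 47.0%, 52.6%, 43.7%, 50.8% and 40.8%, LFD mice 65.5%, 46.1% and 48.2%, and Obese mouse 22 had 39.4%. Control mouse 10 was the highest of its group, and 3 of 4 LFCR, 2 of 5 ICR and 1 of 3 LFD mice were above it. A body region of 3 CpGs, chr7:29135413-29135496, was called lower, with 3.02% ± 4.36 in MCR (SD, n = 3) and 19.1% ± 6.57 in Control (SD, n = 4), a difference of -16.1 points. In 2 body regions with too few MCR mice to be tested, the direction differed. The 4 CpGs of chr7:29141676-29141896 had 88.7% and 90.9% in MCR mice 85 and 96, against 52.2%, 61.1%, 70.4%, 80.5% and 75.2% in Control mice, with 68.7% to 95.8% in the other groups. The 6 CpGs of chr7:29148421-29148689 had 75.1% and 72.9% in MCR mice 85 and 95, against 88.1%, 90.5%, 88.4%, 80.8% and 89.0% in Control mice, with 66.8% to 88.1% in the other groups.

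Arhgap30 and Arhgap45 are GTPase-activating proteins, which switch small GTPases off. The Arhgap30 gain region has 3 CpGs in the 1st exon, chr1:171389568-171389599, 608 to 639 bp from the start. It had 83.1%, 75.9% and 80.0% in MCR mice, against 17.2%, 32.0%, 49.1% and 22.5% in Control mice 2, 5, 10 and 13. The groups lay 26.7 points apart at the nearest mice, and LFCR mice ran across the gap with 77.5%, 83.5%, 58.4% and 33.1%. ICR mice had 39.7%, 74.3%, 45.5%, 42.7% and 51.0%, LFD mice 76.2%, 45.1% and 33.7%, and Obese mouse 22 had 36.9%. The CpG at position 171389568 had the widest gap of all 283, 90.1% ± 1.56 in MCR (SD, n = 3) and 29.3% ± 15.7 in Control (SD, n = 4). Further in, 2 body CpGs 5978 to 6023 bp from the start, too few for a region, averaged 64.1% in MCR and 83.6% in Control, with 2 mice of each. The body regions of Arhgap30 were highly methylated in every group. One region of 4 CpGs, 19095 to 19248 bp from the start, had 83.0% in MCR mouse 96, 80.8% to 94.9% in LFCR, ICR, LFD and Obese mice, and 80.3%, 75.7% and 93.8% in Control mice 5, 10 and 13. The other, with 4 CpGs 20088 to 20208 bp in, had 82.9%, 63.7% and 80.8% in MCR mice, against 92.8%, 82.0%, 74.9% and 90.7% in those 4 Control mice, with 75.5% to 92.6% in the other groups. It was not called.

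Arhgap45 had the largest regional difference of the 9 genes. Its gain region has 9 CpGs, chr10:80017812-80017982, 1140 to 1310 bp from the first listed start, with a median average coverage of 104 reads. The levels were 76.3%, 80.1% and 74.1% in MCR mice, against 21.6%, 17.8%, 31.0%, 33.0% and 29.8% in Control mice, which puts the means at 76.8% ± 3.05 and 26.6% ± 6.60 (SD). All 4 LFCR mice were above every Control mouse, at 73.5%, 74.9%, 43.9% and 41.4%, which held at no other gain region. ICR mice had 47.1%, 59.6%, 45.8%, 33.5% and 32.9%, LFD mice 66.9%, 31.9% and 45.4%, and Obese mouse 22 had 40.6%. From 2339 bp on the order turned. Over 9 CpGs 2339 to 2944 bp in, MCR averaged 20.5% ± 1.16 and Control 37.0% ± 1.43 (SD), a difference of -16.5 points. The 17 CpGs of the next region had 62.4%, 62.0% and 65.7% in MCR mice, against 63.8%, 71.1%, 69.2%, 71.2% and 67.1% in Control mice. The difference was -5.13 points with overlapping mice, beside 59.1% to 70.6% in LFCR, ICR, LFD and Obese mice.

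Coro1a is an actin-binding protein of leukocytes that T cells need for survival and migration. Around its first start it was almost unmethylated, and the gain lay further in. The 10 CpGs from 363 bp before to 782 bp after the start had 9.52%, 4.58% and 6.06% in MCR mice, against 5.30%, 2.54%, 3.66%, 3.85% and 6.35% in Control mice. LFCR, ICR and LFD mice had 3.75% to 6.74% and Obese mouse 22 had 3.92%, so groups overlapped, and the MCR minus Control difference of 2.38 points was not called. The gain region of 8 CpGs, chr7:126702965-126703166, is in an island shore that the authors annotate to the 1st exon, 1650 to 1851 bp from that start. It had 67.0%, 72.2% and 69.8% in MCR mice, against 40.1%, 20.4%, 33.3%, 28.4% and 27.0% in Control mice. LFCR mice had 66.6%, 62.1%, 48.4% and 33.1%, ICR mice 40.0%, 61.3%, 38.3%, 41.9% and 39.8%, LFD mice 61.9%, 38.0% and 45.4%, and Obese mouse 22 had 48.3%. The means were 69.7% ± 2.59 in MCR (SD, n = 3) and 29.8% ± 7.38 in Control (SD, n = 5). Another region, 6 CpGs 2911 to 3169 bp in, had a value in 1 MCR mouse and was not tested. There MCR mouse 85 had 58.5%, LFCR mice 63.7%, 65.4%, 42.3% and 37.1%, ICR mice other than 102 had 53.3%, 54.3%, 39.1% and 39.6%, LFD mice 67.9%, 52.9% and 56.4%, Obese mouse 22 had 45.3% and Control mice other than 1 had 32.3%, 36.3%, 38.3% and 32.7%.

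Rps6ka1 encodes the kinase RSK1, which acts below ERK and is not limited to leukocytes. It has 67 measured CpGs, the largest number of the 9, and 24 of them are also annotated to Gm12977. The gain region has 13 CpGs, chr4:133872831-133873175, at an inner RefSeq start and 14622 to 14966 bp from the first. It had 63.6%, 69.1% and 69.0% in MCR mice, against 22.7%, 14.3%, 28.9%, 39.1% and 25.8% in Control mice. LFCR mice had 68.1%, 63.4%, 46.9% and 37.3%, ICR mice 48.4%, 51.0%, 40.9%, 40.2% and 27.5%, LFD mice 60.0%, 42.0% and 41.2%, and Obese mouse 22 had 24.3%. All LFD mice and 4 of 5 ICR mice lay above every Control mouse. A region of 10 CpGs 13115 to 13506 bp in, beside another inner start, had 67.7%, 75.3% and 67.0% in MCR mice, against 40.0%, 31.7%, 42.0%, 47.7% and 40.7% in Control mice. LFCR mice had 65.7%, 70.4%, 51.5% and 45.9%, ICR mice 51.4%, 60.2%, 51.3%, 50.9% and 50.1%, LFD mice 61.0%, 43.6% and 53.1%, and Obese mouse 22 had 41.8%. All 5 ICR mice exceeded every Control mouse there, which in ICR held at 0.916% of all regions. The 3 CpGs 3257 to 3472 bp from the first start had 80.9%, 75.3% and 76.7% in MCR mice, against 52.3%, 47.4%, 60.1%, 62.8% and 52.5% in Control mice, with 57.9% to 79.4% in the other groups. At the first start, by contrast, the 6 CpGs of an island and its shore averaged 15.3% ± 2.41 in MCR (SD, n = 3) and 22.2% ± 2.38 in Control (SD, n = 5). That difference of -6.95 points was called lower. Of the regions that lie in the body alone, 2 were called lower, with differences of -14.6 and -15.0 points. The tested body region 20274 to 20347 bp in was not called (-6.40 points), and that at 3257 to 3472 bp was called higher. Over all regions, 52.4% were called lower and 5.98% higher.

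**Figure D3:**
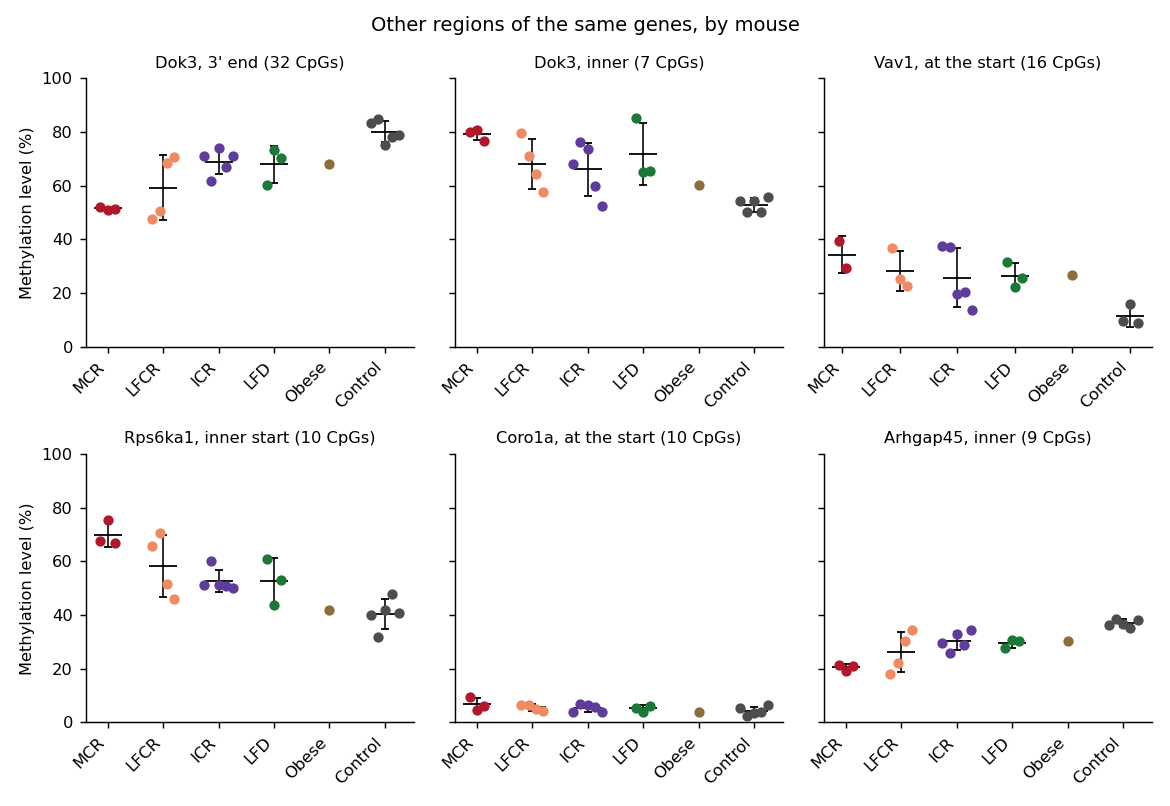
Methylation level in percent at 6 regions of these genes other than the gain regions, with 1 point per mouse and bars for the mean and SD of groups of 2 or more. MCR mice lie below Control at the 3′ end of Dok3 (50.9% to 52.2%, against 75.3% to 84.9%) and in the inner Arhgap45 region, above Control at the inner Dok3 region, the Vav1 start and the inner Rps6ka1 start, and near it at the Coro1a start.

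The calls are set out by feature and by the Control level, which is also a term of the difference. Called losses in the body and where Control was over 50% were near the shares over all CpGs. Of 48 tested 1st exon CpGs, 46 were called higher and none lower, beside 3.61% higher and 25.5% lower of all 18733 1st exon CpGs. The exceptions were 1 Inpp5d CpG and the Rps6ka1 CpG 124 bp from its first start, which was at 0% in MCR and 0.556% in Control. Of 123 body CpGs 35 were called higher and 42 lower, that is 28.5% and 34.1%, beside 4.71% and 34.6% of all body CpGs. The 4 in the 3′UTR of Dok3 were called lower, as were 37.3% of all 3′UTR CpGs. Where Control was at 10% to 50%, 71 of 85 CpGs were called higher with a median of 37.6 points, beside 13.2% of 29007 CpGs and a median of -6.28 points. Another 8 of the 85 were called lower (9.41%), beside 29.1% of all CpGs in that range. Where Control was over 50%, 8 of 81 were called higher and 38 lower, that is 9.88% and 46.9%, beside 1.65% and 42.6% of all such CpGs, with a median of -11.2 points beside -11.0 over all. The genes were chosen on this contrast, so these counts describe them and are not a test.

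**Figure D4:**
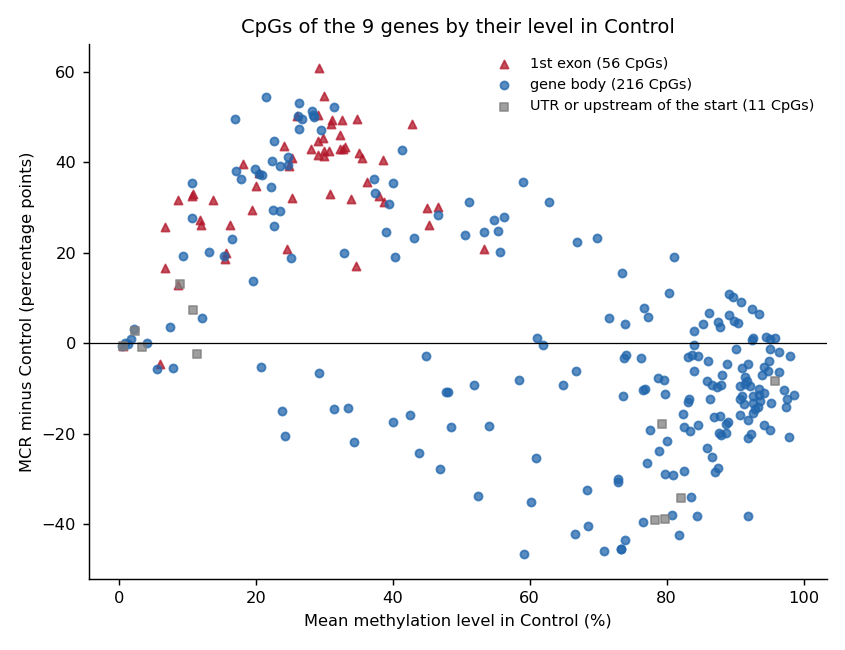
MCR minus Control difference in percentage points against the mean Control level in percent for all 283 CpGs of the 9 genes, with 1st exon CpGs as triangles, body CpGs as circles and the remaining 11 as squares. Almost all 1st exon CpGs lie above 0 with Control levels under 55%, the largest at 60.8 points, and body CpGs spread on both sides down to -46.7.

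The other diets were set against the same Control mice that entered the choice of genes, so their values are only given side by side. In LFCR minus Control, 10 of 23 regions were called higher and 3 lower, where 3.17% of all regions were called higher and 29.3% lower, and 45 of 181 CpGs higher and 23 lower, where 1.48% and 12.1% of all CpGs were. At the gain regions LFCR differed by 17.6 to 32.9 points with a median of 22.7, and 7 of 9 were called, Inpp5d and Vav1 not. The LFCR calls rested on mice 63 and 67: none of the 8 testable gain regions was called without mouse 63 and none of the 9 without mouse 67. Without Control mouse 2, 3 of 8 were called, and without Control mouse 13, 5 of 8. Over all regions, the fits that left out 1 mouse called 5 to 8226 in LFCR minus Control. In ICR minus Control the median was 14.4 points (5.33 to 20.4) and in LFD minus Control 18.4 points (14.9 to 21.6). No gain region was called in either by limma, where 0% of all regions were called higher in ICR (487 at an unadjusted p under 0.05) and 0.0224% in LFD (633 unadjusted), with 0.0168% called lower in LFD. Without LFD mouse 47, the LFD median was 23.8 points and 1 of the 9 was called, Rasgrp4. In the fits that left out 1 mouse, 0 to 1654 of all regions were called in LFD minus Control. All mice of a group lay above every Control mouse at 9 of 9 gain regions in MCR, 1 in LFCR, none in ICR and 2 in LFD, the last being Vav1 and Rps6ka1. Over all regions these shares were 5.66% in MCR, 1.56% in LFCR, 0.916% in ICR and 2.37% in LFD. Obese mouse 22 was above every Control mouse at 2 gain regions, Arhgap45 and Coro1a.

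ICR against LFD compares none of the mice that chose the genes and was the comparison tested for them. No region and no CpG of the 9 genes was called by limma, where 0% of all 17895 regions and 0% of all CpGs were. At an unadjusted p under 0.05 there were 1 CpG higher and 2 lower among the 181 of these genes and none of their 23 regions, beside 4008 CpGs (3.10%) higher and 1754 (1.36%) lower and 583 regions higher and 176 lower over all. ICR was lower than LFD at 9 of 9 gain regions, with differences of -0.540 points at Inpp5d to -9.58 points at Vav1 and a median of -5.60, while the median over all regions was 0.818. The Vav1 difference was -9.58 ± 7.18 points (SE; limma, unadjusted p = 0.201, adjusted p = 0.999), from means of 27.8% in ICR and 37.4% in LFD. At Rasgrp4 it was -6.29 ± 5.27 points (SE; limma, adjusted p = 0.999), at Lat -7.27 ± 7.88 and at Arhgap30 -1.03 ± 11.6. The common sign depended on single mice. Without LFD mouse 42, 7 of the 9 differences turned positive, with a median of 1.40 points. Without any single ICR mouse at least 1 difference turned positive, up to 5.16 points without ICR mouse 112, while the median stayed negative. With SEs of 5.27 to 12.1 points, differences of this size were not detectable.

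The 9 gain regions moved together from mouse to mouse. Each was correlated with the mean of the other 8 over 17 to 21 libraries, with r between 0.78 at Inpp5d and 0.98 at Lat, values that share the libraries and the group differences that chose the genes. The median over the gain regions was 68.3% to 69.7% in MCR mice, 33.6% to 68.1% in LFCR, 32.9% to 53.1% in ICR, 38.5% to 61.9% in LFD, 35.9% in Obese mouse 22 and 17.2% to 40.5% in Control. The 3 highest mice outside MCR were LFCR 63 at 68.1%, LFCR 67 at 64.1% and LFD 42 at 61.9%, and ICR 103 at 53.1% came next. Library-wide methylation moved the other way. Taken over the 95333 CpGs with no missing value, it was 46.5% to 47.2% in MCR, 46.5% and 47.1% in LFCR mice 63 and 67, 48.3% in LFD mouse 42, 50.8% in ICR mouse 103, and 54.1% to 58.3% in Control. The lowest gain level of all, 17.2%, was in the library of highest mean methylation, Control mouse 2 at 58.3%. The part of this library-wide difference in the gains was not tested.

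**Figure D5:**
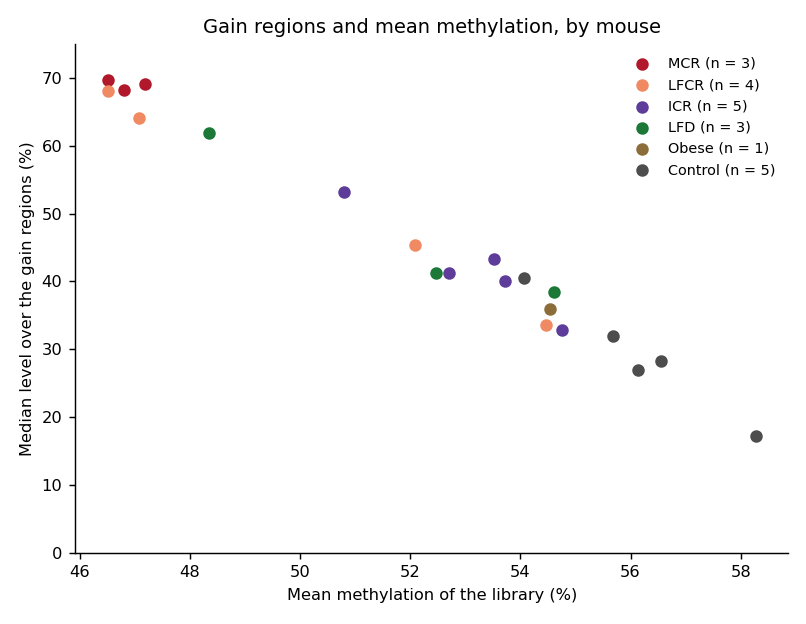
Median level in percent over the gain regions against the mean methylation of the library in percent, with 1 point for each of the 21 mice. The points run from MCR with LFCR mice 63 and 67 at upper left (46.5% to 47.2% mean methylation) to Control mouse 2 at lower right (58.3%, gain level 17.2%), with LFD mouse 42 and ICR mouse 103 on the way.

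Regions of other genes followed the same order of mice. The measure was the correlation over the 21 libraries with the mean of the 9 gain regions, among 13080 regions with a value in each library. Most alike were 59 CpGs in the body of Plekhh3 (r = 0.99), with 69.4% in MCR and 30.6% in Control, followed by regions of Prex1, Fmnl1, P3h4, Mir142hg, Ky, Prdm16, Mafg and a region shared by Ptpn6 and Gm20531, with r from 0.97 to 0.98. The most opposed were regions of Exoc3l2, Rnf220, Abr, Agap2 and Aatk, with r of -0.99. The Rnf220 region of 49 CpGs stood at 6.68% in MCR and 58.8% in Control.

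Other genes of leukocyte signalling were taken from a list of 98, of which 42 had a tested region. Of their 156 regions, 26 in 16 genes were called higher in MCR than in Control and 85 in 33 genes lower, where 5.98% and 52.4% of all regions were. Their median was -8.97 points, beside -7.59 over all regions. The 5 genes of largest gain were Rasal3, a Ras GTPase-activating protein of lymphocytes, at 39.2 ± 6.47 points (SE), Arhgap27 at 38.1 ± 6.84, Itgb2, the integrin chain shared by leukocyte integrins, at 36.9 ± 8.27, Sh2b3 at 36.0 ± 8.87 and Ptpn6, the phosphatase SHP-1, at 34.9 ± 5.42. The Ptpn6 region covers its 1st exon and body and had 53.1% in MCR and 18.2% in Control. The 5 of largest loss were Rasa3 at -49.4 ± 10.7 points (SE), Rasal3 at -48.04 ± 7.65, Vav2 at -46.2 ± 8.90, Coro1c at -43.3 ± 9.99 and Nfatc2 at -38.1 ± 7.56. Rasal3 thus stands on both sides, with 53.9% in MCR and 14.7% in Control over 5 CpGs at its 1st exon and 17.5% in MCR and 65.6% in Control over 6 CpGs of its body. It was not alone in this. Arhgap27 (-35.5 points over 16 CpGs), Sh2b3 (-27.7 over 68) and Itgb2 (-5.47 over 7) also had regions called lower. Nfatc2 (33.8 points over 3 CpGs), Vav2 (12.3 over 3) and Coro1c (6.46 over 12) also had regions called higher. In ICR minus LFD none of the 156 was called.

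Marker genes of the cell types in the pad had calls in both directions, to be read beside the 5.98% of all regions called higher and the 52.4% called lower. Of the regions of T cell markers (6 of 16 listed genes measured), 5 of 36 were called higher and 11 lower in MCR minus Control, and of B cell markers (4 of 10 genes) 1 of 21 was called higher and 13 lower. Of 12 regions of 5 pan-leukocyte genes 3 were called higher, in Itgb2, Laptm5 and Lsp1. Another 6 were called lower, in Cd37 and in Itgb2, Laptm5 and Lsp1 too, with the largest change at Cd37 (-45.2 points). Of 5 regions of 3 myeloid genes 1 was called higher, in Spi1, and 1 lower, also in Spi1. The mean level over the T cell regions was 64.2% to 64.7% in MCR mice and 64.6% to 69.5% in Control mice, and over the pan-leukocyte regions 59.8% to 64.5% in MCR and 64.5% to 69.5% in Control. Adipocyte markers (3 of 11 genes) had 2 of 9 regions called higher and 6 lower, with 56.3% to 56.8% in MCR and 63.7% to 71.0% in Control. Endothelial markers (5 of 9 genes) had 1 of 13 higher and 10 lower, with 44.6% to 45.9% in MCR and 60.5% to 65.9% in Control. Fibroblast markers (3 of 6 genes) had 1 of 12 higher and 8 lower, luminal epithelial markers (6 of 12) 2 of 11 higher and 4 lower, basal epithelial markers (1 of 6) none of 1, and skeletal muscle markers (6 of 6) 1 of 11 higher and 6 lower. The part of the cell makeup in the differences at the 9 genes was not tested.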

How the data were processed

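The deposited data hold the methylation level of each CpG and library as a fraction of reads (0 to 1), printed here in percent, and, per the file headers, an average coverage (a signal in reads) per CpG. The authors used Bismark and mm10, per the submitters' processing notes; versions and filters are not given in the sources used here. The average coverage times 21 was a whole number at 100% of CpGs (tolerance 1e-06), so it is taken over 21 libraries. The depth per library is unknown, so neither a count model nor a binomial interval was used.

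CpGs needed an average coverage of 10, and a test needed values in 3 mice of each group with that many. Regions joined 3 or more CpGs of a gene, and a mouse needed at least 0.5 of them. One limma fit (3.58.1, R 4.3.3) with a term per diet group over 21 libraries gave moderated, two-sided p-values, adjusted by Benjamini-Hochberg over all CpGs or regions, without trend or robust options. The procedure was run on simulated levels, drawn independently for each mouse around the Control means, with changes added in MCR alone. That setting has no shift shared over a library, so nothing about these data is drawn from it. Mouse numbers came from the titles. Genes, lists and the set of 21 libraries were chosen with earlier results of these data known. The rule for named genes takes every member's region with most CpGs and each region 20 points or more apart between MCR and Control. In these regions MCR and Control are given by mouse, and the other groups by mouse or as a range. The 5 listed genes of largest change each way and the regions most alike are given by difference, group mean or correlation. Sequences are RefSeq's (GRCm38.p6), which had an entry for 8 of the 9 genes. Alternatives were coverage minimums, an arcsine scale, complete values, all 25 libraries, a shorter gap, moderation options and leaving out each mouse.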

Additional observations from a re-analysis of the deposited data

Results flagged for a closer look

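Within a group of 4 or more mice, 1 mouse stood far from the rest at 4 of the gene regions, out of 59 groups of values looked at. About 1 in 20 such groups is picked by chance. ICR mouse 103 stood at 56.0% at the Lat gain region, where the other ICR mice had 37.0% to 40.1%. The same mouse stood at 61.3% at the Coro1a gain region, against 38.3% to 41.9% in the others, and at 60.2% in the Rps6ka1 region 13115 to 13506 bp in, against 50.1% to 51.4%. Control mouse 10 stood at 80.8% in the Rasgrp4 body region chr7:29148421-29148689, where the other Control mice had 88.1% to 90.5%.

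The 4 libraries left out of the comparisons carried methylation at the Coro1a start, where the other libraries had almost none. LFD mouse 46 had 55.8% there, and Obese mice 27, 28 and 40 had 58.4%, 50.7% and 59.9%. Control mice had 2.54% to 6.35% at the same 10 CpGs. These levels are not particular to Coro1a. The same 4 libraries averaged 48.8% to 49.2% over all 32071 CpGs whose Control mean was under 5%.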

How the results depend on the processing

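With all 25 libraries, MCR minus Control called 21576 CpGs and 4783 regions in place of 48281 and 10450, LFCR minus Control 2316 CpGs and 1526 regions in place of 17494 and 5804, and LFD minus Control 0 regions in place of 7. On the arcsine square root scale LFD minus Control called 1 region, and with a value in every library 3 CpGs in place of 0. Leaving out each mouse in turn gave 38696 to 49376 CpGs and 9058 to 10946 regions in MCR minus Control, 12 to 32639 CpGs and 5 to 8226 regions in LFCR minus Control, 0 to 2 CpGs and 0 to 1 regions in ICR minus Control, 0 to 33 CpGs and 0 to 1654 regions in LFD minus Control, and 0 to 3 CpGs and 0 regions in ICR minus LFD. The MCR minus Control difference stayed positive at each gain region in these fits, and the median was 38.5 to 41.1 points in the 14 fits with all 9 regions and 37.8 to 41.2 points in the 6 fits with 8, where Inpp5d could not be tested. ICR minus LFD changed sign at some: without single mice it ran from -10.03 to 11.2 points at Arhgap30, -12.3 to 5.14 at Arhgap45, -9.46 to 1.10 at Dok3, -14.4 to 1.40 at Lat, -10.3 to 8.93 at Inpp5d, -9.37 to 2.59 at Coro1a and -9.37 to 0.0139 at Rps6ka1. The cause was not tested. No paired analysis was possible because each mouse number occurs in 1 group. With 3 to 5 mice a group, and no depth per library, differences of a few points between diets were not detectable.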
